A study of Caenorhabditis elegans with 6 samples.

Results

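The genes acox-1.1, maoc-1, dhs-28 and daf-22 encode the core enzymes of peroxisomal beta-oxidation that trim the fatty acid side chains of ascarosides in Caenorhabditis elegans. They were chosen by gene symbol, all 4 were found among the 46748 genes of the count table, and all 4 passed the filter on low counts. RNA was measured in whole day 1 adults of strain VDL786, genotype crh-1(syb385), a knockout of circ-crh-1 (the circular RNA made from the crh-1 gene), and of the wild-type strain N2, with 3 libraries per genotype. Both strains were raised at 20 °C on Escherichia coli OP50 and moved at the L4 stage to plates with 25 µM 5-fluorodeoxyuridine (FUdR), which blocks DNA synthesis and so progeny. The mutation is carried in every cell of the worm. The series' design text calls the replicates independent without saying what each one pooled, so p-values measure the spread between these libraries.

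Ascarosides are glycolipids of the sugar ascarylose that worms release as pheromones, among them the dauer pheromone. Their side chains start as long fatty acids and are shortened inside peroxisomes, by cycles of the same 4 reactions that break down other very long fatty acids. An acyl-CoA oxidase (ACOX-1.1 among others) opens each cycle with a double bond, the enoyl-CoA hydratase MAOC-1 adds water, the hydroxyacyl-CoA dehydrogenase DHS-28 oxidises the product, and the thiolase DAF-22 cleaves off the shortened chain. Worms lacking dhs-28 or daf-22 are known to make no short-chain ascarosides and to carry enlarged lipid droplets in the intestine.

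The libraries held 38974777 to 47444165 counts of read pairs, of which 14188050 to 35075781 fell on protein-coding genes. The crh-1(syb385) replicate 2 library stood apart, with 58.5% of its counts on rRNA genes against 22.9% to 36.4% in the other 5, and with 5.13% of its protein-coding counts on mitochondrial genes against 0.588% to 2.22%. Reads over crh-1 itself pool linear and circular transcripts, so they do not check the knockout. The gene had 17.9, 17.6 and 23.9 CPM (counts scaled to 1e6 per library, on TMM-scaled library sizes) in crh-1(syb385) replicates 1 to 3, against 20.6, 18.7 and 23.9 CPM in wild type. Some markers of adult tissues were abundant. The hypodermis gene col-19 averaged 1459 CPM, the body wall muscle gene unc-54 366 CPM and the gut protease gene asp-1 2078 CPM. Other markers of these tissues were scarce, such as dpy-7 (1.05 CPM) and rol-6 (0.543 CPM) of the hypodermis. The same held for hlh-1 of muscle (1.12 CPM) and end-3 of the gut (0.314 CPM). The 8 sperm markers that could be tested, of 10, summed to 3.59 to 12.1 CPM.

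The 4 genes were strongly expressed, and their levels per length differed from one enzyme to the next. On the scale of RPKM (CPM per kb of exon), the dehydrogenase gene dhs-28 was highest, at 110 ± 24.2 RPKM over the 6 libraries (SD, n = 6). The hydratase gene maoc-1 followed at 62.4 ± 6.76 RPKM and the thiolase gene daf-22 at 61.8 ± 12.01 RPKM. The oxidase gene acox-1.1 was lowest, at 33.8 ± 5.33 RPKM. Ranges over libraries were 76.4 to 147 RPKM for dhs-28, 53.0 to 72.5 RPKM for maoc-1, 43.9 to 76.0 RPKM for daf-22 and 25.2 to 41.1 RPKM for acox-1.1. Thus maoc-1 and daf-22 overlapped, while dhs-28 lay above both and acox-1.1 below both in every library. Among protein-coding genes with at least 1 count, these mean levels stood at the 96.6th percentile for dhs-28, the 92.99th for maoc-1, the 92.9th for daf-22 and the 85.5th for acox-1.1.

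No difference between the genotypes was detected in any of the 4 genes. The 3 genes dhs-28, daf-22 and acox-1.1 averaged 1.27, 1.23 and 1.21 times the wild-type level in crh-1(syb385) worms, and maoc-1 averaged 0.998 times, but the libraries of the genotypes overlapped in every gene and each 95% interval of the fold spanned 1. Of the 14354 genes tested with edgeR's quasi-likelihood test, 0 were called (0%) at an adjusted p under 0.05, and 141 (0.982%) had an unadjusted p under 0.05, none of them among the 4. DESeq2 called 31 of the 16543 genes to which it gave an adjusted p (0.187%). Over the 14354 genes, limma-voom called 0 and edgeR with the replicate number as a block 1 (0.00697%). Again none of the 4 was among the genes called. Under the edgeR block 684 genes (4.77%) had an unadjusted p under 0.05. DESeq2 with the block called 35 of 17939 genes (0.195%), without any of the 4.

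**Figure D1:**
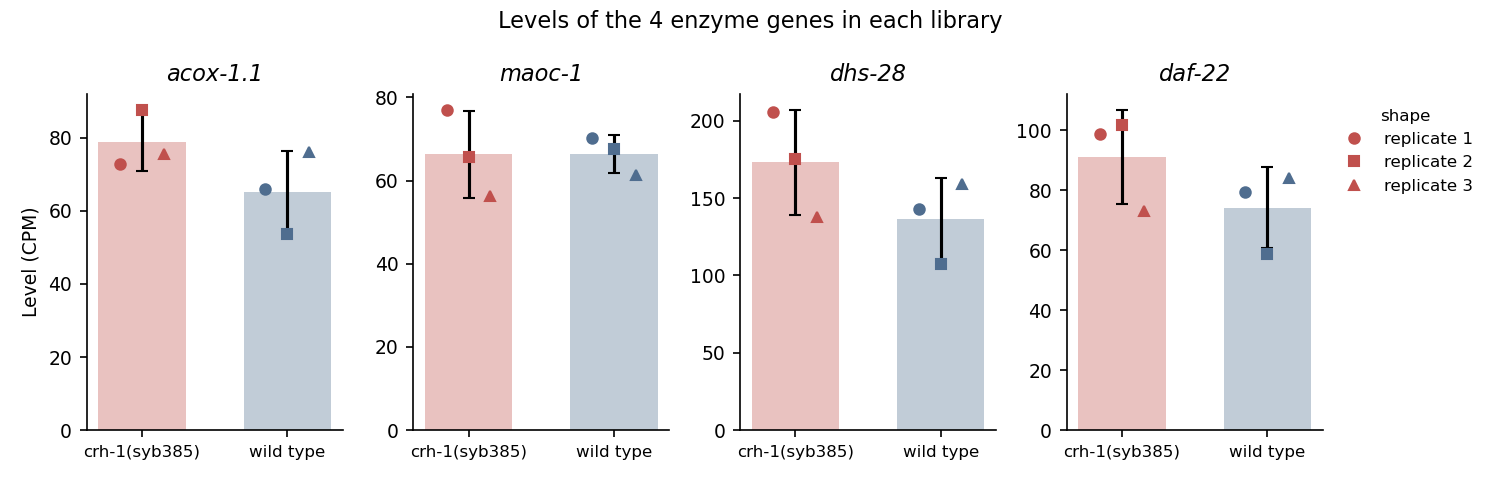
Level in CPM (vertical axis, from 0) of each enzyme gene in crh-1(syb385) and wild-type worms. Bars are means and error bars are SD of 3 libraries; points are single libraries, with the replicate number as the shape. The genotypes overlap in all 4 genes, and wild-type replicate 2 is the lowest library for acox-1.1, dhs-28 and daf-22.

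The first enzyme of the cycle is encoded by acox-1.1 (WBGene00008564; WBcel235 chromosome I, 12938555 to 12942219, plus strand, 7 exon intervals, 2132 bases of exon, 5 annotated transcripts). It had 72.9, 87.7 and 75.6 CPM in crh-1(syb385) replicates 1 to 3, against 65.97, 53.8 and 76.0 CPM in wild-type replicates 1 to 3. The highest library was crh-1(syb385) replicate 2 and the lowest was wild-type replicate 2, while wild-type replicate 3 reached above the other crh-1(syb385) libraries, so the groups overlapped. The means were 78.7 ± 7.90 CPM in crh-1(syb385) and 65.3 ± 11.2 CPM in wild type (SD, n = 3 each). The edgeR quasi-likelihood fit gave a log2 fold change of 0.27 (SE 0.26, adjusted p = 0.996), and the 95% interval of the fold ran from 0.802 to 1.81.

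The hydratase gene maoc-1 (WBGene00017123; chromosome II, 7196276 to 7197495, plus strand, 4 exon intervals, 1063 bases of exon) was the steadiest of the 4 in CPM over the 6 libraries. Within crh-1(syb385) alone its coefficient of variation was 15.7%, against 10.0% for acox-1.1. It had 77.1, 65.6 and 56.3 CPM in crh-1(syb385) replicates 1 to 3, against 70.3, 67.6 and 61.4 CPM in wild type. The highest and the lowest value both came from crh-1(syb385), in replicates 1 and 3, and enclosed all of wild type. The means were 66.3 ± 10.4 CPM in crh-1(syb385) and 66.4 ± 4.55 CPM in wild type (SD, n = 3 each), and edgeR put the log2 fold change at -0.0022 (SE 0.25, adjusted p = 1.0). The interval of the fold, 0.672 to 1.48, was the narrowest of the 4. An exon of the opposite strand gene E04F6.6 overlaps maoc-1, and the counting was done by strand.

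The dehydrogenase gene dhs-28 (WBGene00000991; chromosome X, 6818438 to 6820073, plus strand, 6 exon intervals, 1402 bases of exon) varied most, by 1.92 times between its highest and lowest library. It had 206, 176 and 138 CPM in crh-1(syb385) replicates 1 to 3, against 143, 107 and 159 CPM in wild type. Replicates 1 and 2 of crh-1(syb385) lay above all of wild type, and replicate 3 lay below wild-type replicates 1 and 3. The means were 173 ± 34.2 CPM in crh-1(syb385) and 136 ± 26.7 CPM in wild type (SD, n = 3 each). In the edgeR fit its log2 fold change came to 0.34 (SE 0.29, adjusted p = 0.996), with an interval of the fold from 0.807 to 1.99. The opposite strand gene gei-15 overlaps an exon of dhs-28.

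The thiolase gene daf-22 (WBGene00013284; chromosome II, 12423512 to 12425694, minus strand, 4 exon intervals, 1339 bases of exon) is named for the dauer formation defect of its mutants. It had 98.6, 102 and 73.1 CPM in crh-1(syb385) replicates 1 to 3, against 79.5, 58.8 and 84.2 CPM in wild type. As in dhs-28, crh-1(syb385) replicates 1 and 2 lay above every wild-type library and replicate 3 lay below wild-type replicates 1 and 3. The means were 91.2 ± 15.7 CPM in crh-1(syb385) and 74.2 ± 13.5 CPM in wild type (SD, n = 3 each). For daf-22 edgeR gave 0.30 on the log2 scale (SE 0.28, adjusted p = 0.996), with an interval of the fold from 0.795 to 1.90.

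Counting error was small beside the spread between libraries. Single libraries held 1599 to 3640 counts of maoc-1, 2138 to 4026 of acox-1.1, 2482 to 4658 of daf-22 and 4280 to 9723 of dhs-28. Counting error was at most 2.5% of a value, while the coefficient of variation over the 6 libraries was 10.8% for maoc-1, 15.8% for acox-1.1, 19.4% for daf-22 and 21.97% for dhs-28. That figure covers counting error only, since the reads carry no molecular identifiers.

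Replicate numbers are shared by the genotypes, and within the replicate pairs the differences did not keep one direction. For dhs-28 the log2 level in crh-1(syb385) minus that in wild type was 0.53 in pair 1, 0.71 in pair 2 and -0.21 in pair 3. For daf-22 the differences were 0.31, 0.79 and -0.20 in the same order, and for acox-1.1 they were 0.14, 0.71 and -0.0091. These 3 genes were therefore higher in crh-1(syb385) in pairs 1 and 2 and lower in pair 3, an order shown by 28.1% of all genes tested. For maoc-1 the differences were 0.13, -0.044 and -0.12, so that pair 1 alone was higher in crh-1(syb385). None of the 4 was higher in all 3 pairs, as 11.2% of genes tested were, or lower in all 3, as 10.4% were.

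**Figure D2:**
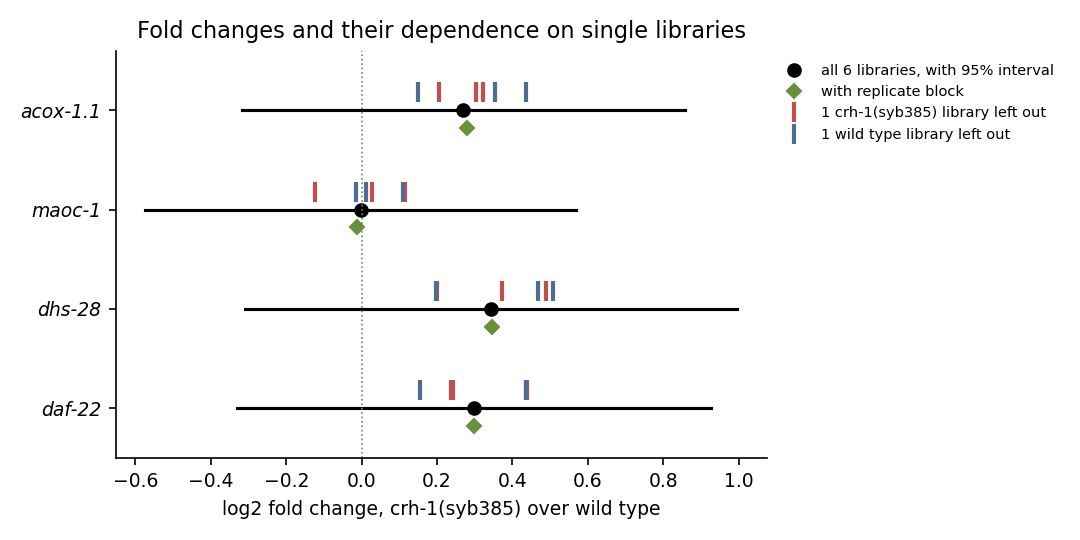
The log2 fold change of each enzyme gene, crh-1(syb385) over wild type (horizontal axis), with its 95% interval from all 6 libraries; diamonds use the replicate block and ticks leave out 1 library. All 4 intervals span 0. Single omissions move acox-1.1 between 0.15 and 0.44, dhs-28 between 0.20 and 0.51 and daf-22 between 0.16 and 0.44, while maoc-1 lies between -0.12 and 0.11.

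Single libraries moved the size of these differences but did not bring any to the threshold. With wild-type replicate 2 left out, log2 fold changes came to 0.15 for acox-1.1, 0.20 for dhs-28 and 0.16 for daf-22, and with wild-type replicate 3 left out to 0.44, 0.51 and 0.44. Without crh-1(syb385) replicate 1 that of dhs-28 was also 0.20. Without crh-1(syb385) replicate 3 the values were 0.30, 0.49 and 0.44 in the same order. Without crh-1(syb385) replicate 2, the library rich in rRNA, the values were 0.20, 0.37 and 0.24. The smallest edgeR adjusted p of any of the 4 genes was 0.322 with 1 library left out.

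Ratios between the enzymes within a library do not depend on depth or scaling, and 6 such ratios were compared. Per length, dhs-28 was 1.99, 1.65 and 1.80 times daf-22 in crh-1(syb385) replicates 1 to 3, against 1.71, 1.74 and 1.81 times in wild type. The proportion of dehydrogenase to thiolase RNA thus stayed within 1.65 to 1.99 in all 6 libraries, and the log2 ratio differed by 0.045 between genotypes (two-sided exact permutation p = 0.8). The ratio of daf-22 to acox-1.1 was 2.16, 1.85 and 1.54 in crh-1(syb385) and 1.92, 1.74 and 1.76 in wild type, a log2 difference of 0.019 (two-sided exact permutation p = 1.0). The ratio of dhs-28 to acox-1.1 was 4.30, 3.04 and 2.77 in crh-1(syb385) and 3.29, 3.03 and 3.19 in wild type. Its log2 difference was 0.064 (two-sided exact permutation p = 0.9).

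Ratios against maoc-1 varied more in wild type, with log2 SDs of 0.32 to 0.36, against 0.039 to 0.076 for the ratios without maoc-1. This did not hold within crh-1(syb385), where dhs-28 over acox-1.1 varied most (log2 SD 0.33) and dhs-28 over maoc-1 least (0.074). For dhs-28 over maoc-1 the ratios were 2.03, 2.03 and 1.85 in crh-1(syb385) replicates 1 to 3, against 1.54, 1.20 and 1.97 in wild type. The crh-1(syb385) libraries were close to each other while wild type was spread out, and wild-type replicate 3 lay within the crh-1(syb385) range. The log2 difference was 0.36 (two-sided exact permutation p = 0.2). The log2 ratio of maoc-1 to daf-22 differed by -0.31 (two-sided exact permutation p = 0.3) and that of maoc-1 to acox-1.1 by -0.29 (two-sided exact permutation p = 0.2). In pairs 1 to 3 the ratio of maoc-1 to acox-1.1 differed by -0.0098, -0.75 and -0.12, so that pair 1 was nearly level. Its two-sided exact sign-flip p was 0.25, the smallest that 3 pairs can give. Wild-type replicate 2 carried much of these differences: without it they were 0.18 for dhs-28 over maoc-1, -0.14 for maoc-1 over daf-22 and -0.15 for maoc-1 over acox-1.1. Without wild-type replicate 3 they were 0.53, -0.47 and -0.46, and without crh-1(syb385) replicate 1 that of maoc-1 over acox-1.1 was -0.46. The smallest p that 3 against 3 libraries can give is 0.1, and adjusted over the 6 ratios none was under 0.6.

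Levels of the 4 genes were also set beside marker genes of the tissues of the worm, since the peroxisomal enzymes are known to be expressed in the intestine and hypodermis. In bulk RNA of whole worms, fewer cells of a tissue and less RNA per cell cannot be told apart. For this, log2 CPM was centred for each gene on its average across the 6 libraries, and a list's level was the average of its centred genes. The 10 intestine markers stood at 0.40, 0.22 and -0.25 in crh-1(syb385) replicates 1 to 3, against 0.021, -0.49 and 0.10 in wild type. On the same scale dhs-28 stood at 0.44, 0.21 and -0.14 in crh-1(syb385), against -0.087, -0.50 and 0.072 in wild type. Both were lowest in wild-type replicate 2 and highest in crh-1(syb385) replicate 1.

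The root mean square difference of dhs-28 from the intestine markers over the 6 libraries was 0.066 on the log2 scale, and that of daf-22 was 0.081. For acox-1.1 it was 0.21, with crh-1(syb385) replicate 1 the farthest apart, and for maoc-1 it was 0.26, with wild-type replicate 2 the farthest. Each of dhs-28, daf-22 and acox-1.1 lay closer to the intestine list than to the hypodermis, body wall muscle, neuron, germline or sperm lists. Both the intestine and the hypodermis list weighted scarce genes like abundant ones. In the intestine list these included end-3 (mean 0.314 CPM), which differed by -1.04, 0.38 and 0.34 in pairs 1 to 3. The level of the intestine list differed by 0.37, 0.70 and -0.35. In the hypodermis list the scarce genes included dpy-7 (mean 1.05 CPM) and bli-1 (0.597 CPM). The hypodermis level differed by -0.048, 0.75 and 0.20 in pairs 1 to 3. The abundant col-19 differed by 0.47, 0.87 and -0.51, and col-93 by 0.33, 0.92 and -0.50. Whether intestine was closer than abundant hypodermis genes alone was not tested. The list closest to maoc-1 was that of 7 neuron markers, at 0.16. These distances describe libraries that share their depth and scaling and carry no test.

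**Figure D3:**
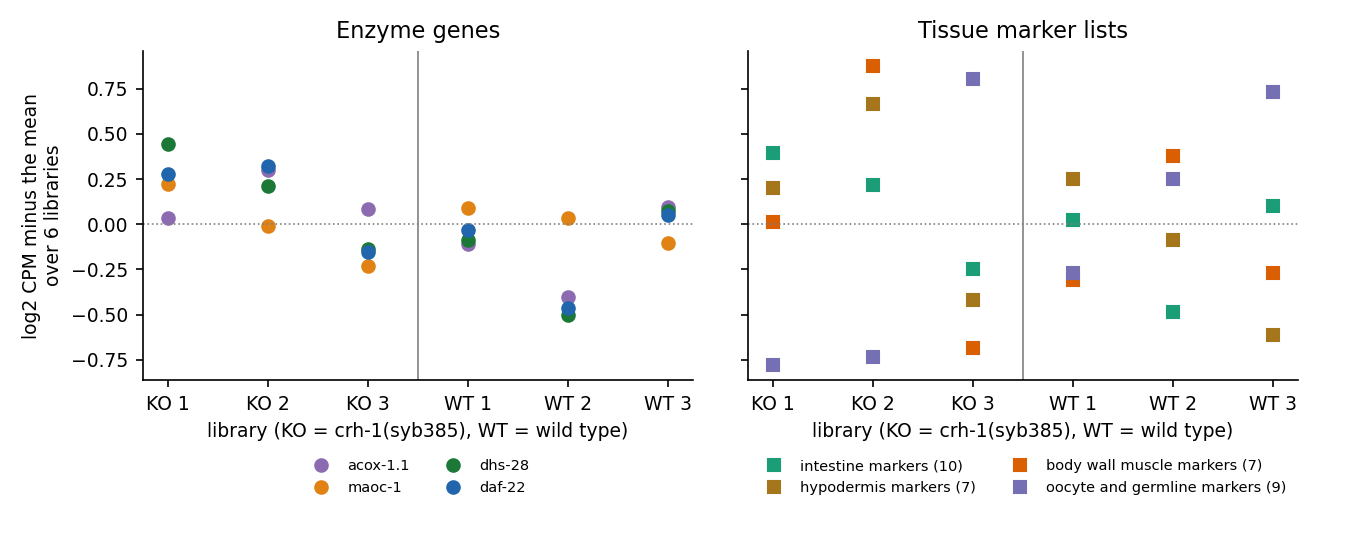
Levels by library as log2 CPM minus the mean over 6 libraries (vertical axis), for the 4 enzyme genes and for 4 lists of tissue markers (number of genes in brackets). In wild-type replicate 2, acox-1.1, dhs-28, daf-22 and the intestine markers are all between -0.50 and -0.40, while maoc-1 is at 0.033; the germline markers have their highest levels in crh-1(syb385) and wild-type replicate 3.

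Markers of several tissues also moved between libraries. On the log2 fold change scale the hypodermis list was positive in 6 of 7 genes (median 0.39), the intestine list in 9 of 10 (median 0.29), the body wall muscle list in 7 of 7 (median 0.26) and the neuron list in 6 of 7 (median 0.21). The positive side was thus shared by 4 tissue lists. The intestine markers' summed level was 2195 to 4882 CPM in crh-1(syb385) and 1752 to 3335 CPM in wild type. The 9 oocyte and germline markers were all on the negative side, with a median of -0.33 and sums of 813 to 2661 CPM in crh-1(syb385) against 1130 to 2556 CPM in wild type. The summed levels were 1580 to 4135 CPM in crh-1(syb385) and 2226 to 2804 CPM in wild type for the hypodermis list, and 437 to 1702 CPM in crh-1(syb385) against 602 to 1010 CPM in wild type for body wall muscle. The sperm list lay farthest from 0, with 8 of 8 genes negative and a median of -0.76, and its level in crh-1(syb385) minus that in wild type was -0.25, -1.50 and -1.03 in pairs 1 to 3. Its sums were 3.59 to 10.1 CPM in crh-1(syb385) against 6.74 to 12.1 CPM in wild type. No marker gene of any list was called by edgeR. The part of tissue make-up in the enzyme levels was not tested.

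Measured against the intestine markers of the same library, an alternative chosen after the data were seen, the differences shrank for 3 of the 4 genes. The list's own level differed by 0.24 between genotypes, and this was subtracted from every gene. Any gene with a positive difference near or above that value shrinks by construction, so the shrinkage is no test of tissue make-up. The log2 difference between crh-1(syb385) and wild type was then 0.10 for dhs-28, 0.055 for daf-22, 0.036 for acox-1.1 and -0.26 for maoc-1. For dhs-28 the crh-1(syb385) libraries stood at 0.046, -0.0040 and 0.11 and the wild-type libraries at -0.11, -0.013 and -0.028, so that the groups did not overlap (two-sided exact permutation p = 0.1, the smallest that 3 against 3 allows, and 0.4 adjusted over the 4 genes). Among all genes tested, 2.96% did not overlap on this scale. The list weighs each marker alike, including the scarce end-3, with 79 counts over 6 libraries and 7 in crh-1(syb385) replicate 1. In pair 1 end-3 differed by -1.04, against 0.37 for the whole list. Whether the separation of dhs-28 rests on end-3 was not tested. The other 3 enzyme genes overlapped.

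The 6 other acyl-CoA oxidase genes, taken by symbol, were all tested and none was called. Some of them are known to act on different side-chain lengths or types. Per length, acox-1.5 had the highest mean, at 37.5 ± 23.3 RPKM over 6 libraries, close to acox-1.1 but far more variable. It was 81.7 RPKM in crh-1(syb385) replicate 1 and 15.8 RPKM in wild-type replicate 2, its extremes. In acox-3 the mean was 20.9 ± 2.32 RPKM, and in acox-1.2, acox-1.4, acox-1.3 and acox-1.6 it was 10.6, 8.07, 7.01 and 5.87 RPKM. The genes acox-1.2, acox-1.3 and acox-1.4 follow acox-1.1 on the same strand of chromosome I, up to 12954015, and acox-1.3 and acox-1.4 overlap at their ends. Reads that fit several of these related genes were left out by the counting, so their levels are uncertain.

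Of the summed oxidase level per length, acox-1.1 made up 18.9%, 34.0% and 33.1% in crh-1(syb385) replicates 1 to 3, against 24.1%, 30.0% and 29.5% in wild type. The means were 28.7% ± 8.45 in crh-1(syb385) and 27.9% ± 3.24 in wild type (SD, n = 3 each). In crh-1(syb385) replicate 1 the low share of acox-1.1 went with a share of 45.2% for acox-1.5. The log2 fold changes were 0.59 (SE 0.52) for acox-1.5, 0.42 (SE 0.41) for acox-1.2, 0.21 (SE 0.27) for acox-1.6, 0.10 (SE 0.26) for acox-1.4, 0.054 (SE 0.33) for acox-1.3 and -0.064 (SE 0.25) for acox-3.

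**Figure D4:**
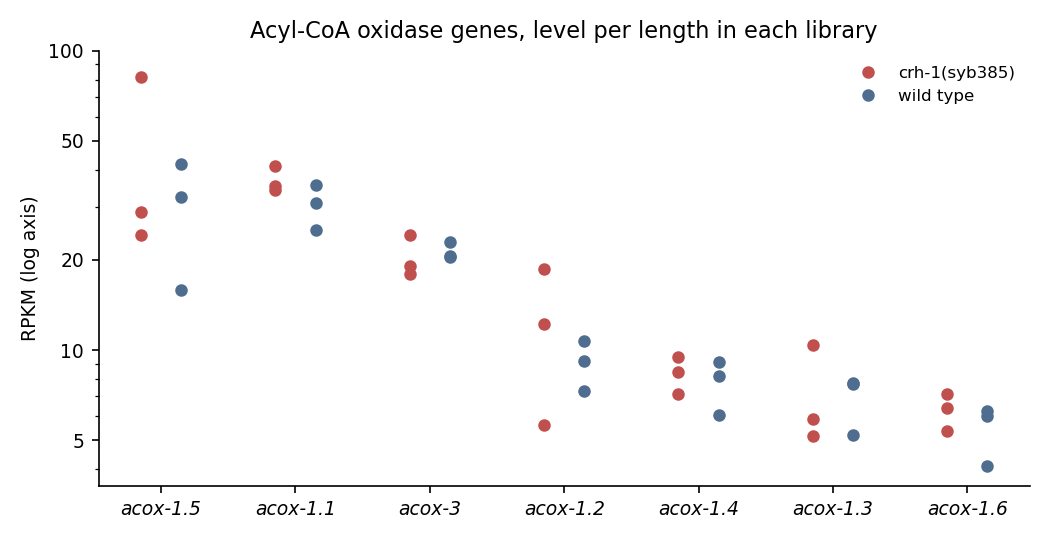
Level per length (RPKM, log axis) of the 7 acyl-CoA oxidase genes in each library, with crh-1(syb385) left of wild type. The libraries of acox-1.1 keep between 25.2 and 41.1 RPKM, while those of acox-1.5 span 15.8 to 81.7 RPKM.

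Other genes of the pathway likewise gave 0 calls. Together with the oxidases, 34 genes of 5 lists were tested, of which 26 lay on the positive side and 8 on the negative, the median log2 fold change being 0.23; among all genes tested 52.3% were positive and the median was 0.022. The 4 enzyme genes had a median of 0.28. Genes within a tissue vary together, so such shares do not count separate observations, and 0 of the 34 had an unadjusted p under 0.05.

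The ascaroside assembly list, which holds the acyl-CoA synthetase gene acs-7, carboxylesterase genes that attach further groups and the lysosomal Rab gene glo-1, had 5 of 8 on the positive side and a median of 0.16. Its member with the smallest p, cest-1.1, had 45.0, 1.48 and 2.03 CPM in crh-1(syb385) replicates 1 to 3, against 13.3, 2.096 and 5.90 CPM in wild type, and so was highest in replicate 1 of each genotype (log2 fold change 1.19, SE 1.18). The next was cest-4 at 0.28 (SE 0.30). Peroxins, which import proteins into peroxisomes and build the organelle, were on the positive side in 8 of 11, with a median of 0.22. Their members with the smallest p were prx-13, of the import pore, at 0.40 (SE 0.29) and prx-3 at 0.35 (SE 0.33).

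The ABC transporter list, of a family that includes carriers of fatty acyl groups into peroxisomes, had 4 of 5 on the positive side and a median of 0.23. In pmp-4 the genotypes did not overlap, with 11.01, 10.7 and 10.5 CPM in crh-1(syb385) replicates 1 to 3, against 9.28, 6.18 and 9.18 CPM in wild type. It was the only 1 of the 34 with that separation, which 3.28% of all genes tested showed (1.72% with crh-1(syb385) higher and 1.56% with it lower). The edgeR fit put pmp-4 at 0.39 on the log2 scale (SE 0.27, adjusted p = 0.996). The other gene named here, pmp-1, stood at 0.40 (SE 0.39). Peroxisomal catalase (ctl-2) and the ether lipid genes acl-7, ads-1 and fard-1 were positive in 4 of 4, with a median of 0.34, led by fard-1 at 0.40 (SE 0.29) and acl-7 at 0.39 (SE 0.28).

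**Figure D5:**
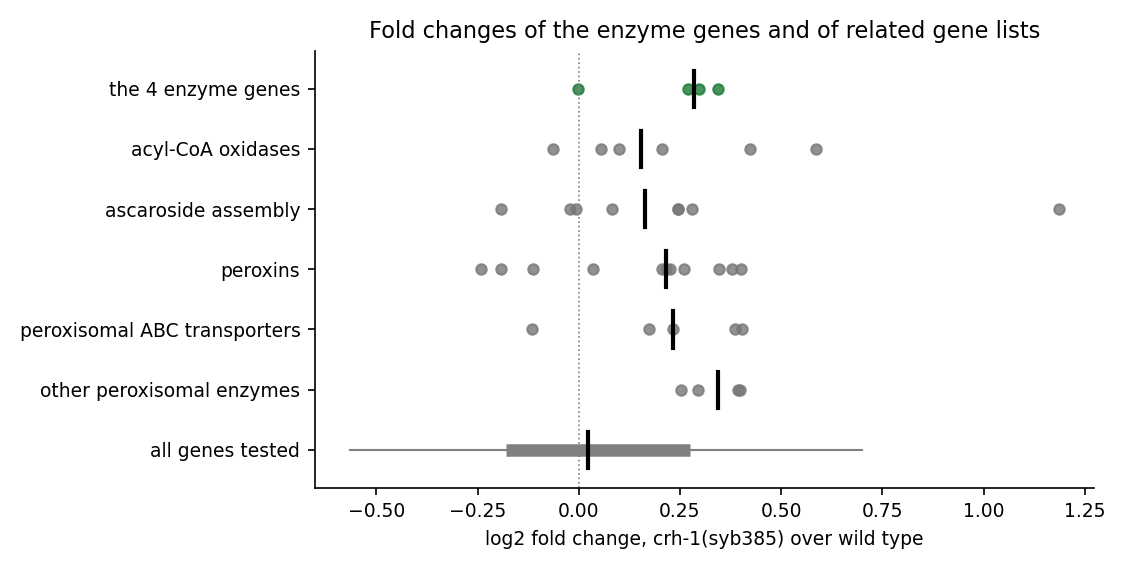
The log2 fold changes, crh-1(syb385) over wild type (horizontal axis), of the enzyme genes and 5 related lists; each point is a gene and the black bar is the median. For all genes tested the thick line covers the interquartile range and the thin line the 5th to 95th percentile. List medians lie between 0.15 and 0.34, against 0.022 for all genes tested, and cest-1.1 at 1.19 is the farthest point.

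Receptors of ascarosides, G protein-coupled receptors of sensory neurons, were at the limit of detection in whole worms. Of 8 receptor genes, daf-37 alone passed the filter, at a mean of 0.723 CPM over the 6 libraries and a log2 fold change of -0.032 (SE 0.62). The 7 others had between 0 and 53 counts over all 6 libraries, with srg-36 and srg-37 at 0.

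Finally, the genes whose profile over the 6 libraries was most like that of each enzyme gene were listed, by root mean square difference of centred log2 CPM among 11240 genes with at least 1 CPM. The closest to dhs-28 was the peroxin gene prx-13 (0.032), followed by scav-4 (0.045) and C09E8.1 (0.045). Closest to daf-22 were Y71H10B.1 (0.031), lido-8 (0.042) and faah-3 (0.045). Among the enzymes themselves, daf-22 was the 34th closest gene to dhs-28 and dhs-28 the 38th closest to daf-22, at 0.086.

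The profile of acox-1.1 was most like those of trap-1 (0.058), Y82E9BR.3 (0.060) and ndua-7 (0.061), and daf-22 came 217th. That of maoc-1 was most like those of F32D8.4 (0.025), stl-1 (0.026) and tmem-208 (0.031). Of the enzyme genes the closest to maoc-1 was daf-22, at 0.26 and rank 2336. Likeness over 6 libraries that share depth, scaling and tissue make-up carries no test.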

How the data were processed

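Counts of read pairs per gene were deposited by the authors as raw counts; per the file headers they were made with featureCounts 1.5.0 over exons with strand setting 2 on the Ensembl WBcel235 annotation, with no option to keep reads that map to several places. HISAT2 2.1.0, DESeq2 1.26.0 and bcl2fastq 2.19 are named in the submitters' processing notes without a role. Per the labels' protocols, the stranded libraries were built on 1 µg total RNA. The exon length column deposited by the authors is in bases and was used for RPKM. Symbols and positions came from Ensembl release 115 of the same build (46449 of 46748 genes).

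The test was edgeR 4.0.16 under R 4.3.3 (filterByExpr at min.count 10 and min.total.count 15, TMM, robust quasi-likelihood fit without covariates, Benjamini-Hochberg over 14354 genes, threshold 0.05). Dividing a log2 fold change by the root of its F statistic gave its SE; intervals are 95%. List levels use log2 CPM with a prior count of 2. The fits were run on simulated counts drawn independently for each library. Those counts held no deviation shared by same-numbered libraries, so they could not check the fits for it, and no conclusion is drawn from them. Alternatives were RLE scaling, library totals alone, no filter, DESeq2 1.42.0, limma-voom 3.58.1, protein-coding genes only, the replicate block and each library left out; DESeq2 with the block, whole pairs left out and levels relative to intestine markers were added after seeing the data. After subtraction of group means, same-numbered libraries correlated across genes with 0.65, 0.48 and 0.58, which is why equal numbers were described as pairs, although the labels do not say what a number shares. The main fit, its SEs and intervals and the permutation tests did not use these pairs. With the replicate block the SEs of acox-1.1, maoc-1, dhs-28 and daf-22 were 0.21, 0.19, 0.23 and 0.23, against 0.26, 0.25, 0.29 and 0.28 without it. No library was a copy of another: chi-square over its degrees of freedom was at least 87.25 for any 2.

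Named genes are the 4 enzymes, crh-1, all oxidases, the 2 of each other list with the smallest p and the 3 most alike by profile; tissue markers and values marking extremes were named beside them after their values were seen. The members and lists were chosen with earlier results of these data known.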

Additional observations from a re-analysis of the deposited data

How the results depend on the processing

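No setting called any of the 4 enzyme genes. The log2 fold changes of acox-1.1, dhs-28 and daf-22 stayed positive in all 18 alternatives each, while that of maoc-1, which lies next to 0, changed sign in 8 of 18. It was 0.0083 with RLE scaling, 0.015 without a filter, 0.021 without replicate pair 2 and 0.080 without replicate pair 3. With 1 library left out it ran from -0.12 to 0.11, that of crh-1 from -0.24 to 0.056, that of acox-1.1 from 0.15 to 0.44, that of dhs-28 from 0.20 to 0.51 and that of daf-22 from 0.16 to 0.44. Scaling by library totals alone moved the all-gene median to -0.21, against 0.022 with TMM, and acox-1.1, dhs-28, daf-22 and maoc-1 stood at 0.013, 0.10, 0.034 and -0.24. The replicate block gave 0.28, 0.35, 0.30 and -0.012 for the same 4 genes and changed no call among them or the lists. Without replicate pair 3 dhs-28 was at 0.64 (edgeR unadjusted p = 0.0343, adjusted p = 0.379) and daf-22 at 0.56 (edgeR unadjusted p = 0.0445, adjusted p = 0.380), in a fit where 1927 of 14781 genes had an unadjusted p under 0.05. Without replicate pair 2 acox-1.1, dhs-28 and daf-22 were at 0.067, 0.19 and 0.071. The genotype differences in the log2 ratios among dhs-28, daf-22 and acox-1.1 lie near 0. They changed sign without crh-1(syb385) replicate 1, to values between -0.12 and -0.026. The difference for daf-22 over acox-1.1 was also negative, at -0.0066, without wild-type replicate 2.

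The number of genes called among all was 5 on library totals, 31 with DESeq2, 1 with the replicate block and 35 with DESeq2 and the block, and 0 with any 1 library left out. On library totals 2 of 6 oxidases, 3 of 8 assembly genes and 5 of 11 peroxins were positive, and the medians were -0.084, -0.14 and -0.024. With 1 library left out 1 to 6 oxidases and 3 to 8 assembly genes were positive, the oxidase median ran from -0.023 to 0.31 and the assembly median from -0.13 to 0.32, the lowest of each without crh-1(syb385) replicate 1. The assembly median was 0.011 with the replicate block and 0.042 with limma-voom. The peroxin median ran from 0.068 to 0.38 and the transporter median from 0.051 to 0.51. Oxidases fell to 1 positive without crh-1(syb385) replicate 1 and to 3 without wild-type replicate 2. With only protein-coding counts in the denominator, mean RPKM values were 57.2 (SD 8.39) for acox-1.1, 107 (SD 20.0) for maoc-1, 188 (SD 46.2) for dhs-28 and 105 (SD 23.1) for daf-22. On that scale acox-1.1, not maoc-1, varied least relative to its mean. The causes were not tested. With 3 libraries per genotype, the 95% intervals of the fold reached from 0.672 at the lowest to 1.99 at the highest.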
